A study of Mus musculus with 16 samples.

Results

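In mouse embryonic stem cells (ESCs) kept by Myc activity, 1451 sites carried the Polycomb subunit Suz12 with trimethylation of histone H3 lysine 27 (H3K27me3) beside them in the Myc-dependent culture alone, and with no trimethylation of lysine 4 (H3K4me3) nearby in either culture. They were chosen by the peak lists themselves. Joining every pair of overlapping Suz12 peaks, whichever culture they came from, gave 14879 regions, of which 2711 had no H3K4me3 peak of either culture within 1000 bp (Suz12-only regions). Of the Suz12-only regions, 1451 (53.5%, 95% Wilson interval 51.6 to 55.4) had an H3K27me3 peak of the Myc-dependent culture within 1000 bp and none of the LIF culture, and are called Myc-K27 regions here. The share was 27.4% where the H3K27me3 peak had to overlap the region. Over all merged Suz12 regions the same H3K27me3 pattern was met by 40.2%. Because presence of the marks selected them, neither the H3K27me3 pattern nor the missing H3K4me3 is a finding, and both are given as a description.

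All cells were R1 mouse ESCs that carry MycER, a point-mutated Myc fused to the hormone-binding domain of the oestrogen receptor, which 4-hydroxytamoxifen (OHT) switches on. LIF-ESCs grew with 100 units/ml of the cytokine LIF, and Myc-ESCs grew without LIF and with 50 nM OHT, so the loss of LIF, the drug and MycER activity cannot be told apart. Chromatin immunoprecipitation followed by sequencing gave 16 libraries in 8 groups of 2, of which 4 libraries were input DNA, and the 12 others gave 6 lists of called peaks. As each antibody and culture has 1 list, no spread between replicates exists and no test between cultures was possible. Intervals cover counting error only and treat regions as independent, which close neighbours are not.

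Polycomb repressive complex 2 (PRC2) places the H3K27me3 mark, and Suz12 is one of its core subunits. In mouse ESCs it mostly sits at CpG-rich start sites of developmental regulators that also carry H3K4me3, the so-called bivalent promoters. Suz12-only regions lie more than 1000 bp from H3K4me3, but many were not far from it. Of the Myc-K27 regions, 48.4% had H3K4me3 within 5000 bp. Their median gap to a Suz12 region near H3K4me3 was 4222 bp. The H3K27me3 lists differed greatly in length, with 3120 peaks for LIF-ESCs against 16717 for Myc-ESCs, while the Suz12 lists held 11305 and 13907. "Myc-only" therefore means not called in the shorter list. After trimming both lists of an antibody to equal length by score, 554 regions met the rule, 25.4% of the Suz12-only regions then found, and 547 of the 1451 overlapped one of them. Regions with the opposite pattern, H3K27me3 in LIF-ESCs only, numbered 63 with the full lists and 178 with lists of equal length. As a check of the cells, 5 of 5 start-site loci of pluripotency genes (Pou5f1, Nanog, Sox2, Esrrb and Zfp42) had H3K4me3 within 1000 bp in both cultures, and H3K27me3 was called at 0 of 5 in LIF-ESCs and at 1 of 5 in the other culture.

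5 Myc-K27 regions are printed from the GRCm38.p6 reference to show what such DNA looks like, since the sequence differs from that of a CpG island. Each line gives the central 300 bp, or the whole region where it is shorter, in lower case on the forward strand with every CpG in capitals. They are the region of strongest H3K27me3, 2 regions whose nearer edge lies within 2500 bp upstream of a start site, an intronic region far from any H3K4me3 that holds no CpG, and 1 with a strong Suz12 signal and no LIF-ESC Suz12 peak.
upstream of Gm21119 (chr8:20522600-20522899): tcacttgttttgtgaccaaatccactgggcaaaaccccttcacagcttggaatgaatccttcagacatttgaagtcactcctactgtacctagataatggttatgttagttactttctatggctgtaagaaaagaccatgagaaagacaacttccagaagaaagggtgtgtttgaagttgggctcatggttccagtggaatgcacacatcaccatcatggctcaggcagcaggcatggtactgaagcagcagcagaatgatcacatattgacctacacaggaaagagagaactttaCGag
upstream of 3110039M20Rik (chr12:49388249-49388548): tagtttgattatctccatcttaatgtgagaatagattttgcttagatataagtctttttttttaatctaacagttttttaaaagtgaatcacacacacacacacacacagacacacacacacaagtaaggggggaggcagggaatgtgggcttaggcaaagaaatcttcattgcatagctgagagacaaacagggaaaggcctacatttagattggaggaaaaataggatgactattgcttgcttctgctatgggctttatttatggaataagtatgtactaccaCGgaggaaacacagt
upstream of Foxf2 (chr13:31621063-31621362): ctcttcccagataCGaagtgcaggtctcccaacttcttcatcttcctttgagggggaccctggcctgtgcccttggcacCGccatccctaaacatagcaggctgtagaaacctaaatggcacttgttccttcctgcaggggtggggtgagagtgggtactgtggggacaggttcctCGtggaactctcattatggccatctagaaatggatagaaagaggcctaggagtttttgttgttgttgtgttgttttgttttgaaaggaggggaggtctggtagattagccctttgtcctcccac
intron of Ndst4 (chr3:125560432-125560616): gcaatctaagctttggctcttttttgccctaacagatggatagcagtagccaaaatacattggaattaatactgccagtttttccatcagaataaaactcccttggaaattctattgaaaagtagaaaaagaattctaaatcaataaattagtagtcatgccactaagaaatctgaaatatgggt
upstream of Gm32061 (chr7:62441941-62442240): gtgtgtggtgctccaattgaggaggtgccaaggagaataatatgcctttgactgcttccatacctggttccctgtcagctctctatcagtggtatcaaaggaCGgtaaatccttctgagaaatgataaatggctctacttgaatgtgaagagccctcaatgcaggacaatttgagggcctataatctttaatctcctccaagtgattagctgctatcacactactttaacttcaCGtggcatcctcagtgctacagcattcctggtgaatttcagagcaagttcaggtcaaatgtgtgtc
The windows upstream of Gm21119 and of 3110039M20Rik hold 1 CpG each, that upstream of Gm32061 holds 2, the Foxf2 window holds 3 and the Ndst4 region holds 0. Their GC content runs from 33.0% in Ndst4 to 51.0% at Foxf2.

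Suz12 itself was called mostly in Myc-ESCs at these regions. A Suz12 peak was present in Myc-ESCs alone at 1159 of 1451 (79.9%, 77.7 to 81.9), in both cultures at 184 (12.7%, 11.1 to 14.5) and in LIF-ESCs alone at 108 (7.44%, 6.20 to 8.91). Over all merged Suz12 regions 51.3% were called in Myc-ESCs alone. With the full lists this share was also above that of each neighbouring class, which the plot of Suz12 by culture sets side by side. Of the 559 Suz12-only regions with LIF-ESC H3K27me3, 53.3% (49.2 to 57.4) had Suz12 in Myc-ESCs alone and 27.9% (24.3 to 31.8) in both cultures. Of the 701 Suz12-only regions with no H3K27me3, 59.5% (55.8 to 63.1) had it in Myc-ESCs alone, and of the 4536 regions with Myc-only H3K27me3 that lay near H3K4me3, 50.2% (48.8 to 51.7). The interval of the Myc-only share of the Myc-K27 regions overlapped none of these, though close neighbours are not independent. The share called in both cultures was 28.8% (25.1 to 32.7) with scores of at least 100 in every list. It was 22.3% (18.7 to 26.3) with 1 region kept from each run of Suz12 regions up to 5000 bp apart, an alternative chosen after seeing the values. Both intervals overlap the 24.3 to 31.8 given above for the regions with LIF-ESC H3K27me3. The Myc-only share was not computed under these settings.

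**Figure D1:**
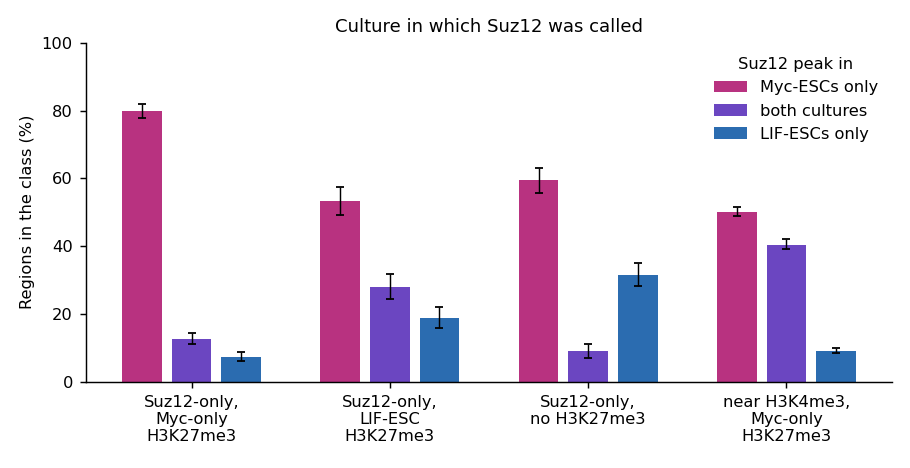
Share of regions in each class (y axis, %) whose Suz12 peak was called in Myc-ESCs only, in both cultures or in LIF-ESCs only, with bars of 95% Wilson intervals (counting error only). The Myc-K27 regions, at the left, have the tallest Myc-only bar, 79.9%, and 12.7% shared.

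Most Myc-K27 regions were short and weakly called. Their median length was 226 bp (quartiles 183 and 360), against 332 bp for Myc-only H3K27me3 regions near H3K4me3, 284 bp with LIF-ESC H3K27me3, 189 bp without H3K27me3 and 265 bp over all Suz12 regions. The peak score, which is a scaled −log10 of the caller's p-value with a lowest deposited value of 50, had a median of 73.2 for the 1343 regions with Myc-ESC Suz12, against 122 near H3K4me3, 88.4 with LIF-ESC H3K27me3, 63.2 without H3K27me3 and 93.9 over all Suz12 regions. The regions shared by both cultures formed a stronger group. Their median length was 747 bp, and their median Suz12 score was 107 in LIF-ESCs and 252 in Myc-ESCs. Each joins overlapping peaks of both lists and had to be called in each, which bears on its length and scores. The Myc-ESC score was the higher one at 141 of these 184 regions. Scores rise with sequencing depth, which is not given in the sources used here, so a score difference between cultures is not a difference in binding.

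The rule required a Myc-ESC H3K27me3 peak near each Myc-K27 region, so the scores of these peaks are a description. The score of a region is that of its best peak, and 1 peak can count for several neighbouring regions. Within 1000 bp there was a median of 3 Myc-ESC H3K27me3 peaks per region (quartiles 1 and 4, highest 11), and the best of them scored a median of 97.3. A score of at least 100 was reached at 706 of 1451 regions (48.7%, 46.1 to 51.2), against 41.0% of all Suz12 regions with a Myc-ESC H3K27me3 peak. The class near H3K4me3 reached it at 28.1% (26.8 to 29.4) and the regions with LIF-ESC H3K27me3 at 63.7% (59.6 to 67.6), with the Myc-K27 regions between both. The 63.7% is of all 559 regions of that class, of which 496 had a Myc-ESC H3K27me3 peak. In all, 2301 distinct Myc-ESC H3K27me3 peaks lay at these regions, 13.8% of the list. Counted once each, these peaks had a median score of 71.4, and 639 scored at least 100. An H3K27me3 peak overlapped 743 regions (51.2%, 48.6 to 53.8), against 53.7% of all Suz12 regions with a Myc-ESC H3K27me3 peak.

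**Figure D2:**
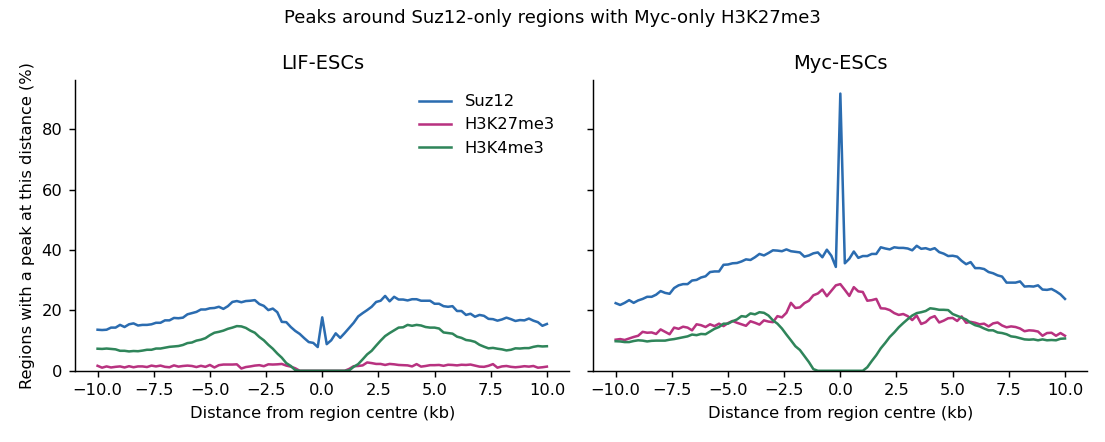
Share of the 1451 Myc-K27 regions (y axis, %) with a called peak at each distance from the region centre (x axis, kb), for LIF-ESCs (left) and Myc-ESCs (right). Myc-ESC H3K27me3 is highest at the centre, 28.7%, and is still 17.5% at +5 kb, while LIF-ESC Suz12 is 17.7% at the centre and 22.2% at +5 kb. The empty centre of the H3K4me3 and LIF-ESC H3K27me3 lines is set by the selection. The central values of Suz12 and of Myc-ESC H3K27me3 are also tied to it.

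The profile of Suz12 peaks around the regions is tied to how the regions were made. Each region consists of Suz12 peaks, and 79.9% were called in Myc-ESCs alone, so the values at the centre restate those calls. No other Suz12 region can overlap a region, which also bears on the values just beside the centre. In Myc-ESCs, Suz12 peaks covered 91.8% of region centres and 38.1% of points 5 kb to the right. In LIF-ESCs they covered 17.7% of centres and 22.2% of points 5 kb to the right, with a low of 7.86% at 200 bp to the left and 12.5% at 1000 bp to the right. Another Suz12 region lay within 1000 bp of 1223 Myc-K27 regions (84.3%, 82.3 to 86.1), at a median gap of 142 bp, close to the 82.8% of all Suz12 regions. The share was 85.7% with LIF-ESC H3K27me3, 89.5% near H3K4me3 and 40.5% (36.9 to 44.2) for the Suz12-only regions without H3K27me3. H3K4me3 lay within 5000 bp of 702 regions (48.4%, 45.8 to 51.0) and beyond 50000 bp for 264 (18.2%, 16.3 to 20.3). These shares were 40.3 and 17.5% with LIF-ESC H3K27me3, 33.2 and 22.5% without H3K27me3, and 89.6 and 3.49% over all Suz12 regions. The rule, which bars H3K4me3 within 1000 bp, bears on them. No other Suz12 region lay within 5000 bp of 86 regions (5.93%, 4.82 to 7.26), against 12.6% of all Suz12 regions.

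The regions were distal. A transcription start site of a curated RefSeq transcript lay within 2500 bp of 130 of 1451 (8.96%, 7.60 to 10.5), against 74.0% (72.7 to 75.3) of Myc-only H3K27me3 regions near H3K4me3, 13.4% (10.8 to 16.5) of those with LIF-ESC H3K27me3 and 14.0% (11.6 to 16.7) of those without H3K27me3. The distance to a start site is tied to the selection, because H3K4me3 marks start sites. Among the classes without H3K4me3, the 8.96% was the lowest share, but close neighbours are not independent. With 1 region kept from each run of Suz12 regions up to 5000 bp apart, the share was 12.8% (10.1 to 16.2). That interval overlaps those given above for the other Suz12-only classes. The share of Myc-K27 regions near a start site was 18.4% with scores of at least 100, 17.9% with the GENCODE annotation and 22.9% when a histone peak counted as near a Suz12 region only at a distance of 0 bp. The median distance was 9092 bp, shorter than the 12082 bp with LIF-ESC H3K27me3 and the 11865 bp without H3K27me3. Over all Suz12 regions the start-site share was 60.8% and the median distance 1285 bp. By their centre, 838 regions (57.8%) lay between genes, 537 (37.0%) in introns, 27 (1.86%) in coding exons and 29 (2.00%) in 3′ UTRs. Between genes and in introns, the shares were 58.3 and 34.3% with LIF-ESC H3K27me3 and 58.3 and 33.1% without H3K27me3. Over all Suz12 regions they were 40.1 and 40.7%.

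CpG content was low beside that of all Suz12 regions. The observed/expected CpG ratio, which is near 1 where CpG is as frequent as base composition allows, had a median of 0.199 (quartiles 0.091 and 0.345). It was 0.217 with LIF-ESC H3K27me3, 0.310 without H3K27me3, 0.495 near H3K4me3 and 0.466 over all Suz12 regions. The ratio is tied to the selection, because leaving out H3K4me3 also leaves out CpG-rich start sites. A length of at least 200 bp with GC above 50% and a ratio above 0.6 is the usual description of a CpG island. It was met by 18 regions (1.24%, 0.786 to 1.95). The share was 1.79% with LIF-ESC H3K27me3, 4.42% without H3K27me3, 25.7% near H3K4me3 and 20.8% over all Suz12 regions. No CpG at all was held by 244 regions (16.8%, 15.0 to 18.8). That share was 14.3% with LIF-ESC H3K27me3, 16.3% without H3K27me3, 4.63% near H3K4me3 and 5.85% over all Suz12 regions. Suz12 shared by both cultures went with more CpG: the median ratio was 0.378 at the 184 shared regions, 0.177 at the 1159 called in Myc-ESCs alone and 0.262 at the 108 called in LIF-ESCs alone. The shared regions were also longer and nearer to start sites, at a median of 5228 bp against 10805 bp.

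**Figure D3:**
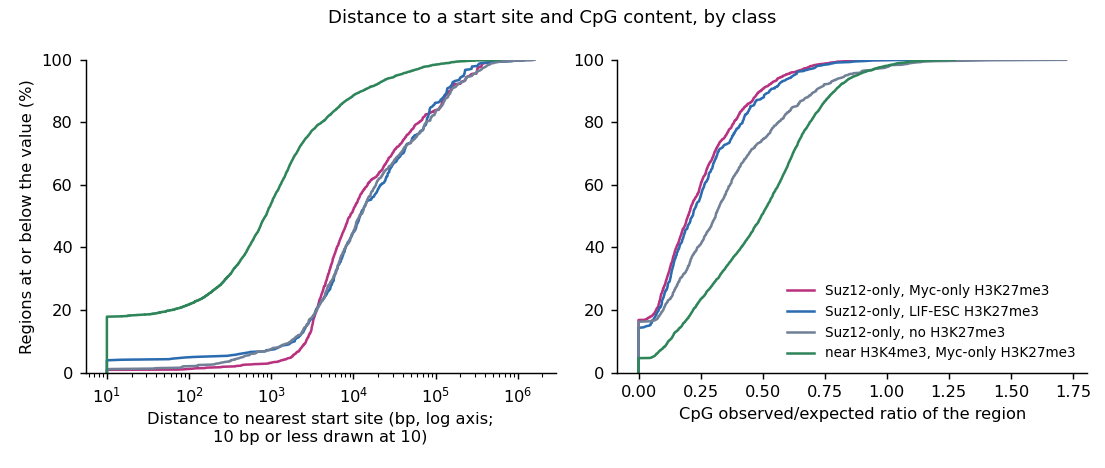
Cumulative share of regions (y axes, %) by distance to the nearest start site (left, bp, log axis) and by CpG observed/expected ratio (right), 1 line per class. The Myc-K27 regions have a median distance of 9092 bp and a median ratio of 0.199, and the regions near H3K4me3 have 848 bp and 0.495. Both measures are tied to the selection by H3K4me3.

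Short motifs were searched on both strands in the central 300 bp of each region. CACGTG, the canonical E-box of Myc, was present in 44 Myc-K27 regions (3.03%, 2.27 to 4.05) and in 4.22% (3.91 to 4.56) of all Suz12 regions. GGGCGG, a GC box, was in 70 (4.82%, 3.84 to 6.05) against 22.7% (22.1 to 23.4). Its share was also low in the other Suz12-only regions, at 6.08% (4.38 to 8.38) with LIF-ESC H3K27me3 and 9.84% (7.85 to 12.3) without H3K27me3. The lower GC-box share went with the low CpG content, and the part of CpG content in it was not tested. TTCAGCACC, the core of the REST element, was in 7 regions (0.482%) against 0.612%, and GAGAGAGA, a GAGA repeat, in 95 (6.55%) against 5.36%. A match is a description of the letters and not of binding.

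Of the 10 longest regions, several lay at genes of developmental regulators. The longest of all, 7951 bp at chr7:70343033-70350983, lay between genes 5181 bp upstream of the non-coding gene Gm29683 and 9610 bp downstream of the start of Nr2f2, an orphan nuclear receptor gene. Its Suz12 score was 3100 in each culture, with 11 H3K27me3 peaks and a best score of 587.28. A Suz12 score of exactly 3100 recurred at several named regions, while the highest Myc-ESC score over all Suz12 regions was 3233. Why it recurs was not tested, so differences from 3100 are not read as differences in signal. A 6959-bp region covered the start of Barx1, a homeobox gene of the stomach and teeth (chr13:48663015-48669973), with Suz12 scores of 2711.64 in LIF-ESCs against 3100 in Myc-ESCs, with an H3K27me3 score of 103.17. At Pitx1, a homeobox gene of hindlimb identity, a 4591-bp region 1854 bp upstream of the start scored 753.94 in LIF-ESCs and 3100 in Myc-ESCs. These 3 regions had Suz12 peaks in both cultures, as 12.7% of the Myc-K27 regions did.

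Several strong regions lay within 2500 bp of start sites and far from any called H3K4me3. Upstream of Foxf2, a forkhead gene of gut and palate mesenchyme, a 5134-bp region 2037 bp from the start (chr13:31618646-31623779, window printed above) had Suz12 scores of 1332.15 in LIF-ESCs and 3100 in Myc-ESCs, an H3K27me3 score of 342.45 and its nearest H3K4me3 peak 55894 bp away. The Pitx1 region was 104180 bp from the nearest H3K4me3 peak. At Grb10, an imprinted adaptor of growth-factor signalling, a 2605-bp region 159 bp upstream of the start scored 1703.71 and 3100, with H3K27me3 at 335.77 and H3K4me3 10117 bp away. A start with Suz12 and H3K27me3 but no called H3K4me3 is thus present in these lists, though it makes up a small part of them: a start site lay inside 13 of the 1451 regions (0.896%, 0.524 to 1.53).

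Other regions near start sites had a low LIF-ESC Suz12 score or no LIF-ESC Suz12 peak. The strongest H3K27me3 within 2500 bp of a start, 829.86, was shared by 3 neighbouring regions between 490 and 1695 bp upstream of the non-coding gene 3110039M20Rik on chromosome 12, of which chr12:49388097-49388701 had a Myc-ESC Suz12 score of 247.2 and no LIF-ESC peak. Next came 2 regions upstream of Hotairm2, a non-coding gene of the HoxA cluster, with an H3K27me3 score of 675.23 and Myc-ESC Suz12 scores of 152.81 and 186.86. A region over an exon of Hotair, the non-coding RNA gene of the HoxC cluster, had Suz12 scores of 78.82 in LIF-ESCs against 167.74 in Myc-ESCs, with an H3K27me3 score of 333.14.

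Strong Suz12 signals without any LIF-ESC Suz12 peak lay in varied settings, of which 4 among the strongest are given. An intron of Sim2, a basic helix-loop-helix gene, held a region of 893 bp with a Myc-ESC Suz12 score of 682.27 and an H3K27me3 score of 77.6. The region upstream of Gm32061, 21167 bp from the start of the imprinted gene Mkrn3, scored 796.12 and 132.69. In the 3′ UTR of Zc3hav1l the scores were 703.23 and 424.65. At 1700022H16Rik, a non-coding gene whose nearest coding neighbour is Osr1, a zinc-finger regulator of kidney and heart development, a region over the start scored 637.34 and 67.97. These 4 regions lay 5069 to 39043 bp from the nearest LIF-ESC H3K27me3 peak.

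To see how the regions lie together, all Suz12 regions up to 5000 bp apart were joined into stretches, a step added after the values had been seen. The 1451 regions fell into 467 stretches, of which 215 held 1 region and 28 held at least 10, and those 28 held 434 regions (29.9%). In 263 stretches, with 868 of the regions, another Suz12 region lay near H3K4me3. The other 204 stretches, with 583 regions, held no such Suz12 region. The latter lay farther from start sites, at a median of 57233 bp against 5282 bp, and had LIF-ESC Suz12 at 83 of 583 (14.2%, 11.6 to 17.3) against 209 of 868 (24.1%, lower bound 21.4). H3K27me3 differed little between the 2 kinds, with median scores of 96.0 and 99.6, as did the CpG ratio, with 0.18 and 0.21.

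Among the stretches with no H3K4me3, 11 held at least 10 Myc-K27 regions, and 10 of their 170 regions had LIF-ESC Suz12. The largest spanned 23.0 kb of chromosome 2 (chr2:136099062-136122103) inside Pak7, a kinase gene, with Lamp5 as the nearest start. There, 27 Suz12 and 28 H3K27me3 peaks were called in Myc-ESCs against 1 and 1 in LIF-ESCs. A stretch of 13.9 kb between genes on chromosome 3, nearest Tspan2, which codes for a tetraspanin, had 24 and 15 peaks in Myc-ESCs and 0 and 0 in LIF-ESCs. A stretch of 13.5 kb in introns of Kif26b, which codes for a kinesin, had 20 and 21 against 0 and 0, and one of 13.7 kb in Tdrd5, a germ-line gene, had 13 and 16 against 0 and 0.

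Not all of these stretches were silent in LIF-ESCs. In the 27.2-kb stretch of Pappa, which codes for a secreted protease that cleaves IGF-binding proteins, 35 Suz12 and 47 H3K27me3 peaks of Myc-ESCs stood against 20 and 8 of LIF-ESCs, and 11 of its 31 Suz12 regions had LIF-ESC H3K27me3. In the 15.1-kb stretch of Onecut3, a homeobox gene, 16 and 7 stood against 10 and 0. The map of peaks in 4 stretches shows the whole of each range.

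**Figure D4:**
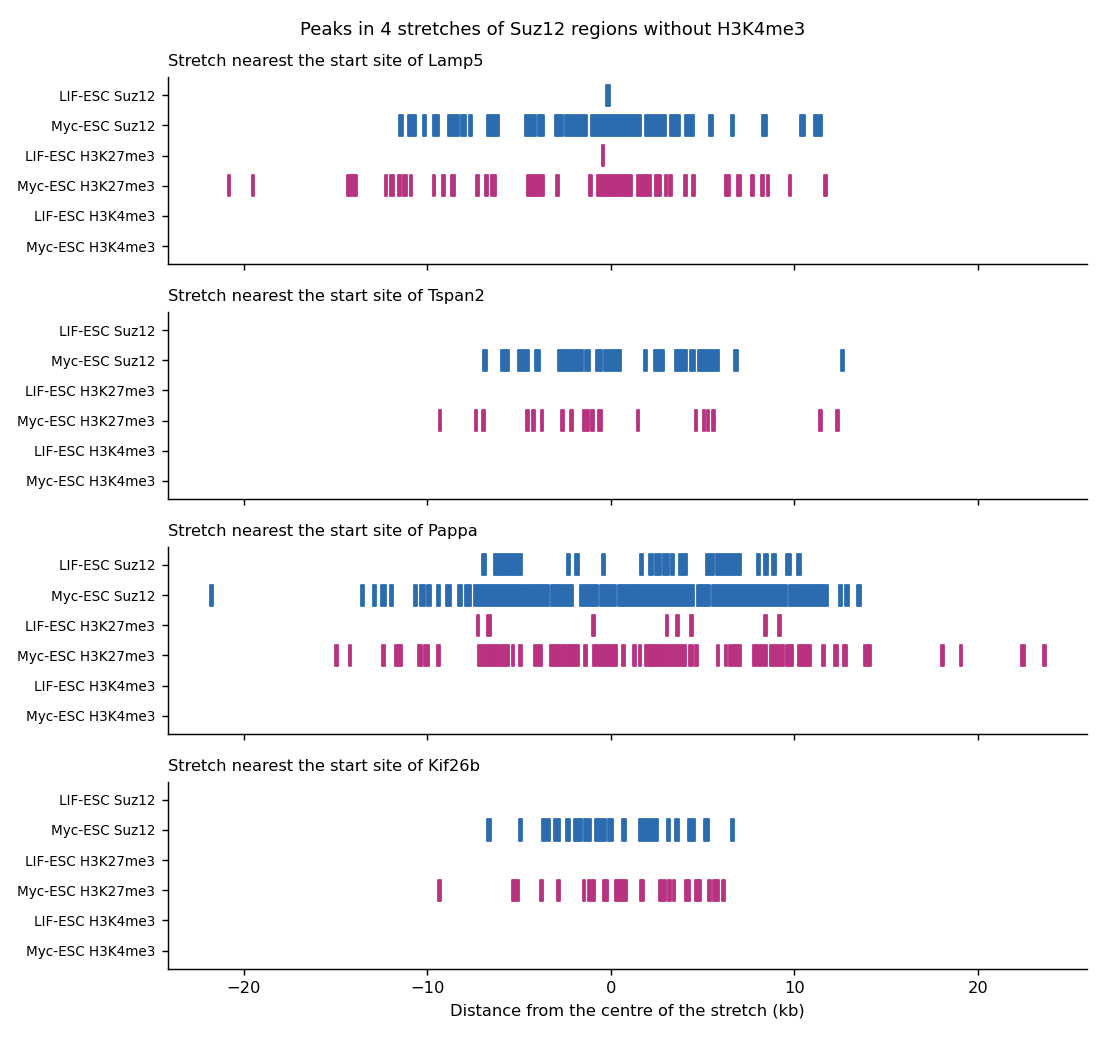
Called peaks (blocks) of the 6 lists in 4 stretches of Suz12 regions without H3K4me3, by distance from the centre of the stretch (x axis, kb), with 10 kb added on either side. The stretches nearest Tspan2 and Kif26b have Myc-ESC peaks only, that nearest Lamp5 has 1 LIF-ESC peak each of Suz12 and H3K27me3, and Pappa has 20 LIF-ESC Suz12 peaks.

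The largest group of regions with H3K4me3 in its stretch lay around Peg12 on chromosome 7 (chr7:62428416-62490004, 61.6 kb). It held 31 Myc-K27 regions, with 46 Suz12 and 94 H3K27me3 peaks in Myc-ESCs against 25 and 7 in LIF-ESCs. Peg12 is a paternally expressed gene whose product belongs to the GSK3-binding family. Sfmbt2, which codes for a Polycomb-group protein, had 20 regions in 41.5 kb, with 31 and 53 peaks against 14 and 5, and Pcdh7, a protocadherin gene, had 20 in 31.2 kb, with 28 and 39 against 5 and 2.

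All 4 Hox clusters, which set position along the body axis, held Myc-K27 regions. The stretch covering HoxA (chr6:52151825-52275926) held 19, that over HoxD (chr2:74648212-74764559) 18, that over HoxC (chr15:102909083-103041505) 17 and that over HoxB (chr11:96250809-96356725) 16. More LIF-ESC than Myc-ESC Suz12 peaks were called over HoxA (69 and 52), HoxD (69 and 51) and HoxC (94 and 80), but not over HoxB (60 and 67). Such a split was not confined to the Hox clusters, as a stretch at Pax3 had 24 and 23. The H3K27me3 peaks numbered 30 and 165 over HoxA, 35 and 154 over HoxD, 27 and 184 over HoxC and 14 and 87 over HoxB. These are numbers of called peaks and not amounts of the mark.

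Assigned to the nearest start site, the 1451 regions named 459 genes, of which 212 had 1 region and 32 had at least 10. The 10 leading genes took 213 regions (14.7%): Peg12 with 31, Lamp5 with 25, Pappa with 24, Tspan2 with 23, Sfmbt2 with 22, Pcdh7 and Kif26b with 19 each, the predicted gene Gm21119 with 18, the nuclear receptor gene Nr2f1 with 17 and the AP-2 factor gene Tfap2b with 15, a count that Gm13470 equalled. LIF-ESC Suz12 was present at 0 of the regions of Lamp5, Tspan2, Pcdh7, Kif26b and Gm21119, at 1 of 31 for Peg12 and at 6 of 15 for Tfap2b.

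Homeobox, Hox and T-box genes, which code for transcription factors of the body plan, took a larger part of these regions than of all Suz12 regions. Homeobox genes outside the Hox clusters, which pattern the early embryo, were nearest to 177 regions (12.2%) through 49 of 163 genes, against 6.47% of all Suz12 regions. The other Suz12-only classes also exceeded that share, with 8.77% where LIF-ESC H3K27me3 was called and 9.27% without H3K27me3. Uncx had the strongest H3K27me3 of the family at 582.01, with Suz12 scores of 2613.54 in LIF-ESCs against 3100 in Myc-ESCs. Evx2 at 534.06 and Gsx2 at 281.07 were also among the strongest, and neither had LIF-ESC Suz12 at its strongest region. Hox genes were nearest to 44 regions (3.03% against 1.08%), led by Hoxa13 at 440.88 and Hoxc13 at 429.46, and T-box genes to 28 (1.93% against 0.605%), led by Tbr1 at 683.96, a regulator of cortical neurons whose region had Suz12 in LIF-ESCs alone.

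Further factor families varied in this comparison. Zinc-finger and AP-2 genes of the Gata, Zic, Sall and Gli list were nearest to 55 regions (3.79% against 1.92%), led by Prdm13 at 361.56 and Tfap2c at 228.94, but the Suz12-only regions with LIF-ESC H3K27me3 had a higher share, 4.65%. Basic helix-loop-helix genes had 51 (3.51% against 2.00%, and 0.358% with LIF-ESC H3K27me3), led by Neurod2, a neuronal differentiation factor, at 255.82. Fox genes had 24 (1.65% against 0.880%), led by Foxl1 at 383.09, close to the 1.61% with LIF-ESC H3K27me3. Sox genes, which include regulators of neural and cartilage cells, went the other way, with 5 regions (0.345% against 0.410%). Counting each gene once, homeobox genes outside the Hox clusters made up 10.7% of the 459 genes against 2.96% of genes nearest to any Suz12 region, Hox genes 1.96% against 0.601% and T-box genes 1.53% against 0.249%. The Gata, Zic, Sall and Gli list made up 2.61% against 0.932%, basic helix-loop-helix genes 3.49% against 1.16%, Fox genes 2.40% against 0.601% and Sox genes 0.654% against 0.331%, so Sox genes changed direction. Families of the same list may hold neighbouring genes that share a stretch, so these shares carry no interval.

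Adhesion genes also had a larger share than among all Suz12 regions, and transporter and channel genes a smaller one. Protocadherin and cadherin genes, many in clusters and with related sequences, were nearest to 54 regions (3.72% against 1.94%, and 3.58% with LIF-ESC H3K27me3), 3 of them with LIF-ESC Suz12, led by Pcdhb22 at 385.2 and Pcdh7 at 322.37. Potassium channel genes had 2 regions (0.138% against 1.22%), close to the 0.179% with LIF-ESC H3K27me3. Solute carrier genes had 6 (0.414% against 1.53%, and 1.61% with LIF-ESC H3K27me3). Of these, Slc25a4, the mitochondrial ADP/ATP carrier gene of muscle, had the strongest H3K27me3 outside chromosome 8's repeats, 902.04 at chr8:46214295-46214784. Axon guidance genes had 11 (0.758% against 1.44%, and 0.537% with LIF-ESC H3K27me3), and ribosomal protein genes 0.

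**Figure D5:**
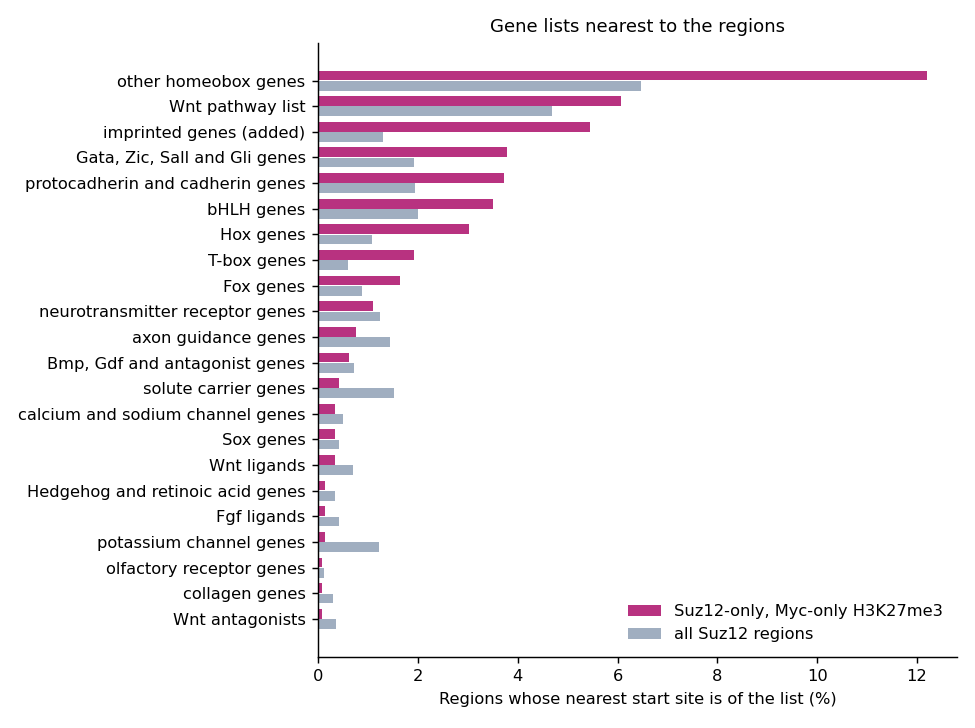
Share of regions (x axis, %) whose nearest start site belongs to each gene list (y axis), for the Myc-K27 regions and for all 14879 Suz12 regions. Homeobox genes outside the Hox clusters have 12.2% against 6.47%, and potassium channel genes 0.138% against 1.22%. Suz12-only regions with LIF-ESC H3K27me3, which are not drawn, have 8.77% and 0.179%.

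Wnt signalling, in which secreted ligands act through Frizzled receptors and are held back by antagonists, was the pathway the study followed. Of 31 Wnt antagonist genes, 1 had a Myc-K27 region: Shisa3, with an intronic region 88356 bp from its start, a Myc-ESC Suz12 score of 59.97 and an H3K27me3 score of 79.58. The antagonists were nearest to 0.0689% of Myc-K27 regions and to 0.363% of all Suz12 regions, and 21 of the 31 genes had a Suz12 region of some class. Their share was 0.353% near H3K4me3 with Myc-only H3K27me3 and 0.0% in each other Suz12-only class. The paper reported gains of H3K27me3 and Suz12 at antagonists among bivalent genes, which carry H3K4me3. The rule leaves out Suz12 regions within 1000 bp of H3K4me3, so the low count here does not bear on that result. Of 19 ligand genes, 3 had regions, namely Wnt3 with H3K27me3 at 190.67, Wnt8b at 128.89 and Wnt5a at 112.94, and of 10 Frizzled genes 0 had one. The study's broad Wnt list, of which 349 of 351 names were matched, took 88 regions through 22 genes (6.06% against 4.68% of all Suz12 regions). Peg12, Prickle1 and Grb10 alone gave 31, 14 and 11 of them.

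The very highest H3K27me3 scores came from 1 repetitive place. All 10 regions with the highest score, from 992.7 to 2102.95, lay within chr8:19752819-20712108, a part of chromosome 8 with predicted genes such as Gm21119 and 4930467E23Rik. Of its 43 Myc-K27 regions, 41 had a near copy elsewhere (at least 90% of the length at 95% identity), with a median of 11 copies. Their median score was 739, against 95.9 for the regions elsewhere. The lists held 294 Myc-ESC and 69 LIF-ESC H3K27me3 peaks there, 92 and 5 Suz12 peaks, and 45 further Suz12-only regions with LIF-ESC H3K27me3. The authors kept unique reads at their best-matching place, and the part of the near copies in these scores was not tested. Elsewhere only 25 regions had a near copy, and leaving the place out changed the share of Myc-K27 among Suz12-only regions from 53.5% to 53.7%.

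A few regions were remote from any H3K4me3. The farthest, at 735281 bp, was a 352-bp region on chromosome X, between genes and 85513 bp from the start of Asmt, with a LIF-ESC Suz12 score of 51.32, no Myc-ESC Suz12 peak and H3K27me3 at 51.22. The next, in introns of Sdk1 and Ndst4 and between genes near 4930448I06Rik and 1700081H04Rik, had Myc-ESC Suz12 scores between 52.93 and 77.53 and H3K27me3 between 54.61 and 83.53. Each of these 5 had 1 H3K27me3 peak, and all 5 H3K27me3 scores were below the 97.3 median of the Myc-K27 regions.

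The 1000-bp limits cut through a continuous range of distances. The nearest H3K4me3 peaks inside the rule were 1002 bp away at Sox9 and at Tbx1, with H3K27me3 scores of 113.61 and 99.8, and those just outside were 999 bp away at Gm26688 and 998 bp at Gm46735, with 62.58 and 76.42. For LIF-ESC H3K27me3, regions at Wnt3 and Nr2f1 were kept at 1002 and 1004 bp, and one at Hoxc8 was left out at 1000 bp with Suz12 scores of 280.31 and 2155.57. For Myc-ESC H3K27me3, the farthest kept were at 4931439C15Rik with 989 bp and Tfap2c with 983 bp, and the first left out were at Gm13470 with 1001 bp and Frg2f1 with 1003 bp.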

How the data were processed

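The authors aligned reads to GRCm38 (mm10) with Bowtie2 2.2.3, kept unique reads at their best match, and called peaks with MACS 1.4.2, per the labels. Each deposited list gives peak start and end positions and a score, a scaled −log10 p-value. Whether the 2 libraries of a group were pooled, and their depth, are not given in the sources used here. Overlapping Suz12 peaks were joined, and near meant a gap of at most 1000 bp. Start sites came from curated RefSeq transcripts of GRCm38.p6, within 2500 bp of a region, and each region was given to the gene of its nearest start. Near copies were sought with minimap2. Shares have 95% Wilson intervals (scipy). With 1 list per culture and antibody no test was run. The interval code was tested on simulated data with 1000 planted regions, of which 1000 were recovered. Named were the 10 regions of highest H3K27me3 score, the 10 longest, the 10 highest within 2500 bp of a start, the 5 farthest from H3K4me3, the 5 of highest Myc-ESC Suz12 score without LIF-ESC Suz12, the 10 leading genes, the strongest members of each family, and 3 on either side of each limit. The members, lists and families were chosen with earlier results of these data known. Stretches, near copies, the imprinted list and the pluripotency check were added after the values were seen. Alternatives changed the score limit, list length, distances, merging, Suz12 source, annotation and sequence window. 1 region that the rule names, with its sequence, is not reported here.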

Additional observations from a re-analysis of the deposited data

How the results depend on the processing

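The number of Myc-K27 regions, 1451, stayed within 1.5 times under distances of 0, 500 and 2000 bp, Myc-ESC Suz12 peaks alone, and without near copies or the chromosome 8 repeats. It was 532 with scores of at least 100, 554 with lists of equal length, 604 with 5000 bp as near, 749 with no H3K4me3 within 5000 bp, 743 where H3K27me3 had to overlap, 351 with Suz12 peaks up to 1000 bp apart merged, 632 with LIF-ESC Suz12 peaks alone and 467 with 1 region per stretch. The share among Suz12-only regions, 53.5%, became 48.1, 25.4, 38.9, 48.3, 27.4, 35.7, 42.7 and 38.5% under the same 8 settings in that order, and 35.7, 50.8 and 48.5% with distances of 0, 500 and 2000 bp and 58.6% with Myc-ESC Suz12 alone. The causes of these moves were not tested. The share with Suz12 in both cultures, 12.7%, was 28.8% with scores of at least 100, 17.5% with equal lists, 17.3, 11.0 and 7.78% with 0, 2000 and 5000 bp, 9.21% with no H3K4me3 within 5000 bp, 16.3% with overlapping H3K27me3, 82.9 and 18.9% with LIF-ESC and Myc-ESC Suz12 alone, 22.3% with 1 region per stretch and 6.82% where both Suz12 peaks had to overlap by 50%. The start-site share, 8.96%, was 18.4% with scores of at least 100, 22.9, 15.3 and 6.62% with 0, 500 and 2000 bp, 6.01% with no H3K4me3 within 5000 bp, 21.5% with LIF-ESC Suz12 alone, 12.8% with 1 region per stretch, 3.10 and 31.7% with windows of 1000 and 5000 bp, and 17.9% with GENCODE. The median CpG ratio, 0.199, was 0.243 with scores of at least 100, 0.183 with 0 bp, 0.177 with overlapping H3K27me3, 0.329 with LIF-ESC Suz12 alone and 0.244 with 1 region per stretch. Of 75 alternative values, 29 stayed within 1.5 times (the count) or inside the 95% interval (shares and median). The 1 region per stretch and 2 further settings, which leave out near copies or the chromosome 8 repeats, were chosen after seeing the data.

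No paired analysis was possible because each group has 1 peak list and no result comes from a test. Depth is unknown, so a peak missing from a list is not shown to be absent from the cells, and scores cannot be compared between cultures.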

Other observations

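Imprinted genes, which are expressed from 1 parental copy, recurred among the leading genes, and a list of them was therefore drawn up after the values had been seen, so its share supports nothing. Of 49 listed genes, 8 were nearest to Myc-K27 regions, with 79 regions (5.44%, against 1.29% of all Suz12 regions). Peg12, Sfmbt2 and Grb10 gave 31, 22 and 11 of these. Sgce, the epsilon-sarcoglycan gene, had 5, with Suz12 scores at its strongest region of 157.92 in LIF-ESCs against 438.63 in Myc-ESCs, with H3K27me3 at 204.47. Rasgrf1 had 5, with H3K27me3 at 159.27, Dio3 had 3, at 81.99, and Kcnk9 and Ndn had 1 each, at 64.36 and 53.95. LIF-ESC Suz12 was present at 13 of the 79 regions.

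The 108 Myc-K27 regions with Suz12 in LIF-ESCs alone went the other way for Suz12 and H3K27me3. Their median length was 192 bp, their median LIF-ESC Suz12 score 63.7 and their median H3K27me3 score 76.2, against 99.8 where Suz12 was called in Myc-ESCs alone. Tbr1 had the strongest H3K27me3 among them, 683.96, beside a LIF-ESC Suz12 score of 68.23. A region on chromosome 14, chr14:19415684-19419725, was unlike the others: it spanned 4042 bp, had 83.1% repeat sequence and stood 137348 bp from any other Suz12 region, with Suz12 scores of 681.53 in LIF-ESCs against 470.04 in Myc-ESCs, with 1 H3K27me3 peak of 726.55.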
